A study of Mus musculus with 10 samples.

Results

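Genes of 3 imprinted clusters were examined across mouse stem cells and fibroblasts: Igf2 and H19 of the Igf2-H19 cluster, Cdkn1c, Kcnq1ot1, Phlda2, Slc22a18 and Ascl2 of the Kcnq1 cluster, and Igf2r, Airn and Slc22a3 of the Igf2r cluster. They were chosen by name as textbook members of these clusters, with earlier results of these data known. All 10 were found among the 54532 genes measured. By background knowledge 7 are classed as maternally expressed (H19, Cdkn1c, Phlda2, Slc22a18, Ascl2, Igf2r and Slc22a3) and 3 as paternally expressed (Igf2, Kcnq1ot1 and Airn). Imprinted expression can be limited to some tissues, and these classes need not hold in the cells used here, in which allele use was not measured. The study sequenced poly-A RNA of epiblast stem cells (EpiSC, self-renewing cells resembling the post-implantation epiblast), epiblast-like cells (EpiLC, a transient state between naive and primed pluripotency), embryonic stem cells (ESC, resembling the pre-implantation epiblast) and mouse embryonic fibroblasts (MEF), all of strain 129SV. EpiSC came as 2 haploid lines labelled knockout (KO) for p53, the tumour suppressor encoded by Trp53 (haEpi1 and haEpi5, n = 2), as diploid wild type (WT; 1 female and 1 male library, n = 2) and as a diploid p53 knockout (n = 1). EpiLC were haploid, 1 library with and 1 without the p53 knockout. ESC were wild type, 1 haploid and 1 diploid library, and the MEF library was diploid wild type. Of the 8 groups, 6 thus hold a single library, no haploid wild-type EpiSC was included, and both EpiLC libraries carry the haploid label. Triplicates are mentioned in the series' design, and 10 libraries were used here. The labels do not say from which parent the haploid genomes came, nor that replicates were separate cultures. The p-values therefore measure only the spread between these libraries, which may be technical within a group. Tests between cell states gave each cell type 1 mean and so treated unlike groups as replicates. Their spread also holds p53 label, ploidy label and sex in EpiSC, ploidy label in ESC and p53 label in EpiLC.

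Genomic imprinting silences a gene on the chromosome inherited from 1 parent, through DNA methylation laid down in the egg or the sperm. In the Igf2-H19 cluster the maternal chromosome expresses the non-coding RNA H19 and the paternal chromosome the growth factor Igf2. In the Kcnq1 and Igf2r clusters a long antisense RNA, Kcnq1ot1 or Airn, is made from the paternal chromosome. Where the imprint acts, this RNA silences neighbouring protein-coding genes there, so that these are expressed from the maternal chromosome. A haploid cell holds a single parental set of chromosomes. The counts used here do not separate alleles: every level below is the sum over whatever copies the cells carry, and in these bulk samples fewer cells expressing a gene cannot be told apart from less RNA per cell.

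The 7 members of the Igf2-H19 and Kcnq1 clusters lie on chromosome 7 of the mm10 assembly and the 3 of the Igf2r cluster on chromosome 17, as drawn in the map of gene spans. H19 (chr7:142575529-142578143) lies 72.6 kb from Igf2 (chr7:142650766-142666816), both on the minus strand. Ascl2 (chr7:142966829-142969264) lies 234.2 kb from Kcnq1ot1 (chr7:143203458-143296549), whose annotated exon is a single block of 93092 bases. Cdkn1c (chr7:143458339-143461050), Slc22a18 (chr7:143473736-143499334, plus strand) and Phlda2 (chr7:143501545-143503150) follow, with 12.7 kb and 2.21 kb between them. On chromosome 17, Slc22a3 (chr17:12418960-12507704) lies 174.7 kb from Igf2r (chr17:12682406-12769664). Airn (chr17:12741311-12860136, plus strand) starts inside Igf2r and overlaps 28.4 kb of it on the opposite strand, but its 3597 counted exon bases share none with Igf2r. No source used here says whether the counting used strand. Reads of overlapping genes on opposite strands therefore cannot be told apart. Of the exon bases of Igf2, 64.5% are shared with Gm49394, which held 1 count in all libraries together, or with the antisense gene Igf2os, which held 365 counts in MEF and 85 in the other libraries. Reads in shared bases may have been counted for neither gene, so Igf2 levels are uncertain. Of the exon bases of Cdkn1c, 30.7% are shared with the antisense gene Gm44732, which held 0 counts in all libraries.

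**Figure D1:**
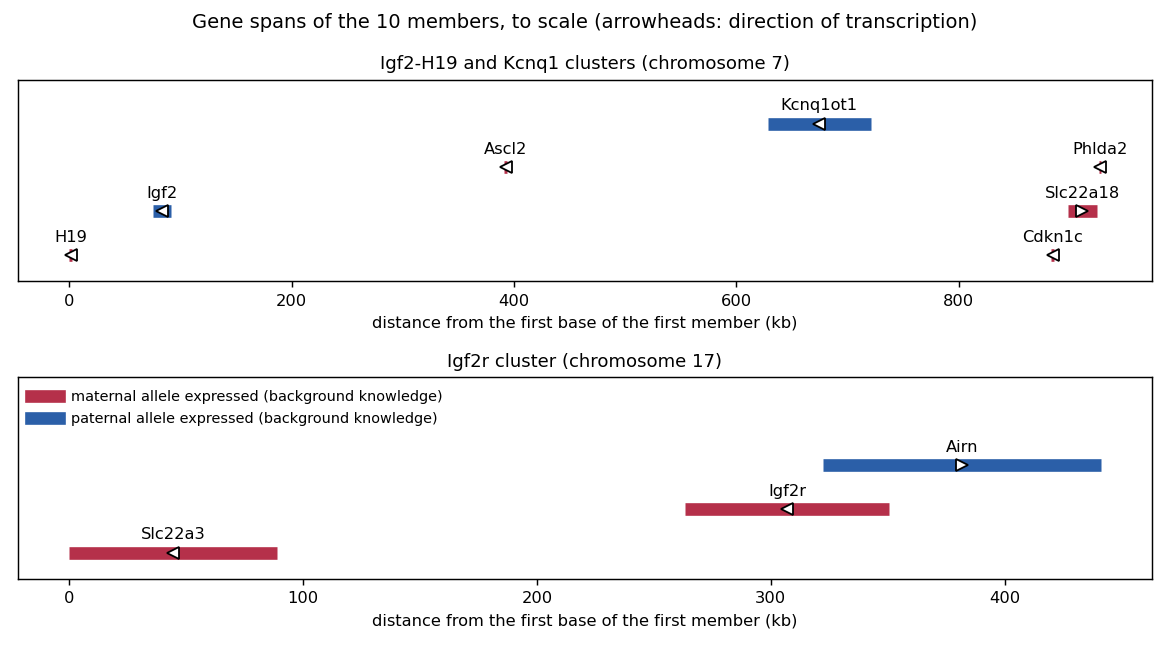
Gene spans of the 10 members to scale, against the distance in kb from the first base of the first member on each chromosome; colours give the parental allele expressed by background knowledge and arrowheads the direction of transcription. Airn overlaps 28.4 kb of Igf2r, and Slc22a3 lies 174.7 kb from Igf2r.

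Promoter windows of 250 bases before the RefSeq start site (GRCm38.p6) were found for 8 of the 10 members, in 11 windows. Those of the Igf2r cluster are shown because Slc22a3 and Airn carried the differences between cell states described below, whereas no such difference passed the test for Igf2r between them. That of Kcnq1ot1 is shown for its CCAAT boxes, a motif known from the promoter of this RNA. Capitals mark every match, on either strand, to CAGGTG (an E-box, the binding motif of E-proteins and SNAIL and ZEB factors), CCAAT or TATAAA. The windows are chr17:12507705-12507954 (minus strand), chr17:12741061-12741310 (plus strand), chr17:12769707-12769956 (minus strand) and chr7:143296548-143296797 (minus strand), in the order Slc22a3, Airn, Igf2r and Kcnq1ot1.
Slc22a3: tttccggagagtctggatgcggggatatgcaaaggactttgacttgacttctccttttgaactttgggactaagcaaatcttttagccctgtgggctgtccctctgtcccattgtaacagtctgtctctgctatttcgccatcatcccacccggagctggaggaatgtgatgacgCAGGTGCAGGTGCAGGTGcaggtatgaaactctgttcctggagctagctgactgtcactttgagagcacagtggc
Airn: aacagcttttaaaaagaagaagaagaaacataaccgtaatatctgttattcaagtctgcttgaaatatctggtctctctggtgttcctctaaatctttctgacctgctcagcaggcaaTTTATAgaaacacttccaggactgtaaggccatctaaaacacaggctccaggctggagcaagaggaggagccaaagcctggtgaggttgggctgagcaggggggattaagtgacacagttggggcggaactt
Igf2r: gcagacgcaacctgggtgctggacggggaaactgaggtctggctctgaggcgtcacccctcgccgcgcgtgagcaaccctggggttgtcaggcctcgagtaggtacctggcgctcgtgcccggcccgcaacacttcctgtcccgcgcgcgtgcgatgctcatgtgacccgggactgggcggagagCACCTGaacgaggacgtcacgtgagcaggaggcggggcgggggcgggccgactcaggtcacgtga
Kcnq1ot1: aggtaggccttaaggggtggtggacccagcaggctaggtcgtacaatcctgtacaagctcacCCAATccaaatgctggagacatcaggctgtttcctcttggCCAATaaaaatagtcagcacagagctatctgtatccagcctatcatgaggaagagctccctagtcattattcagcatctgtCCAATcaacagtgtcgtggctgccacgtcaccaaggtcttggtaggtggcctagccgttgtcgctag
The Slc22a3 window holds 3 adjacent copies of CAGGTG, a motif searched for after the sequence had been seen. Of all 32807 promoter windows of this length, 17.2% hold at least 1 copy and 0.247% hold 3 or more. The Igf2r window holds 1 copy, on the reverse strand. The Airn window holds 1 TATAAA, also on the reverse strand, a motif present in 12.4% of windows. The Kcnq1ot1 window holds 3 CCAAT boxes, as 2.79% of all windows do. The windows differ in CpG content, with 27 CpG in that of Igf2r, 5 in those of Slc22a3 and Kcnq1ot1 and 2 in that of Airn, against a median of 6 over all windows. The hexamer TGCCGC, the core motif of the imprint-maintaining factor ZFP57, was in none of the 11 windows and in 8.68% of all windows. A match describes these letters only.

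H19 also carries a microRNA within its exon, and the Igf2 gene spans another outside its annotated exons. Their mature RNAs are given with the seed (bases 2 to 8) in capitals, since they come from the same transcription units as the levels below.
mmu-miR-675-5p: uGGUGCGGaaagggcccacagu
mmu-miR-675-3p: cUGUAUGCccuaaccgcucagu
mmu-miR-483-5p: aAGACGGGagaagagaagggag
mmu-miR-483-3p: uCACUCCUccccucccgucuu
No seed is shared among the 4. The gene entry of Mir675 was at 0 counts in every library, also in MEF with its high H19, and its bases are shared with the H19 exon. That of Mir483 held 41 counts in MEF, 2 in the p53-KO diploid EpiSC library and 0 elsewhere. Libraries of this kind do not measure mature microRNA.

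Total counts ran from 15862113 to 18814003 per library. Naive ESC markers, 9 genes, summed to 4016 CPM (counts scaled to a fixed library total) in diploid and 1909 in haploid ESC. In EpiSC they summed to 17.9 to 88.6 CPM, and in EpiLC to 1341 (p53-KO) and 859 (WT). Their median was 121 CPM in the p53-KO and 9.87 in the WT EpiLC library, and 181 in haploid ESC. The 9 post-implantation markers summed to 1276 CPM in the p53-KO and 4464.5 in the WT EpiLC library. They summed to 1383 to 2320 CPM in EpiSC, and to 393 and 477 in haploid and diploid ESC. By these markers the p53-KO EpiLC library lay between ESC and the WT EpiLC library, so EpiLC comparisons pool unlike libraries. Pou5f1, the pluripotency factor, was at 0 in MEF and between 378 and 1144 CPM in the other libraries. Trp53 was at 2.17 CPM in the p53-KO diploid EpiSC library and between 32.9 and 61.8 in the 3 haploid p53-KO libraries. Among those labelled wild type, the haploid ESC at 28.5 and the female EpiSC at 36.9 CPM were as low, and the 4 others lay between 129 and 375, so Trp53 levels separate only part of the p53 labels. Ddx3y, on the Y chromosome, was at 0 in the diploid ESC library, between 46.1 and 117 CPM in the libraries of male EpiSC, p53-KO diploid EpiSC, MEF and haploid WT EpiLC, and between 0.630 and 8.49 CPM in the 5 others. Fibroblast markers, 18 genes, summed to 75357 CPM in MEF. In EpiSC they summed to 1.21% to 3.16% of that level, in the haploid ESC library to 1.88%, in EpiLC to 0.0736% and 0.215%, and in the diploid ESC library to 0.0371%, where 6 of the 18 were at 0, among them Col3a1, Dcn and Postn.

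Levels of the members are TMM-normalised CPM, which compare 1 gene between libraries. Per length, in the deposited FPKM, H19 was the most abundant member in 7 of the 10 libraries, and Igf2r in the male WT EpiSC, WT EpiLC and diploid ESC libraries. In MEF, H19 at 3550 FPKM was the third most abundant of all genes, followed among the members by Cdkn1c at 210 FPKM, Igf2r at 102 FPKM and Igf2 at 77.5 FPKM. In the 9 pluripotent libraries Igf2r lay between 9.66 and 36.0 FPKM, whereas Kcnq1ot1, spread over its long exon, reached at most 0.453 FPKM. The members therefore differ by several orders of magnitude per length, and the least abundant rest on few counts. Igf2 had 3, 2 and 1 counts in the p53-KO EpiLC, WT EpiLC and diploid ESC libraries, Airn had 4 and 3 in the EpiLC libraries, and Slc22a3 had 3 and 1 in the haploid and diploid ESC libraries. The plot of member levels shows the 95% Poisson interval of each value, which covers counting error only.

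**Figure D2:**
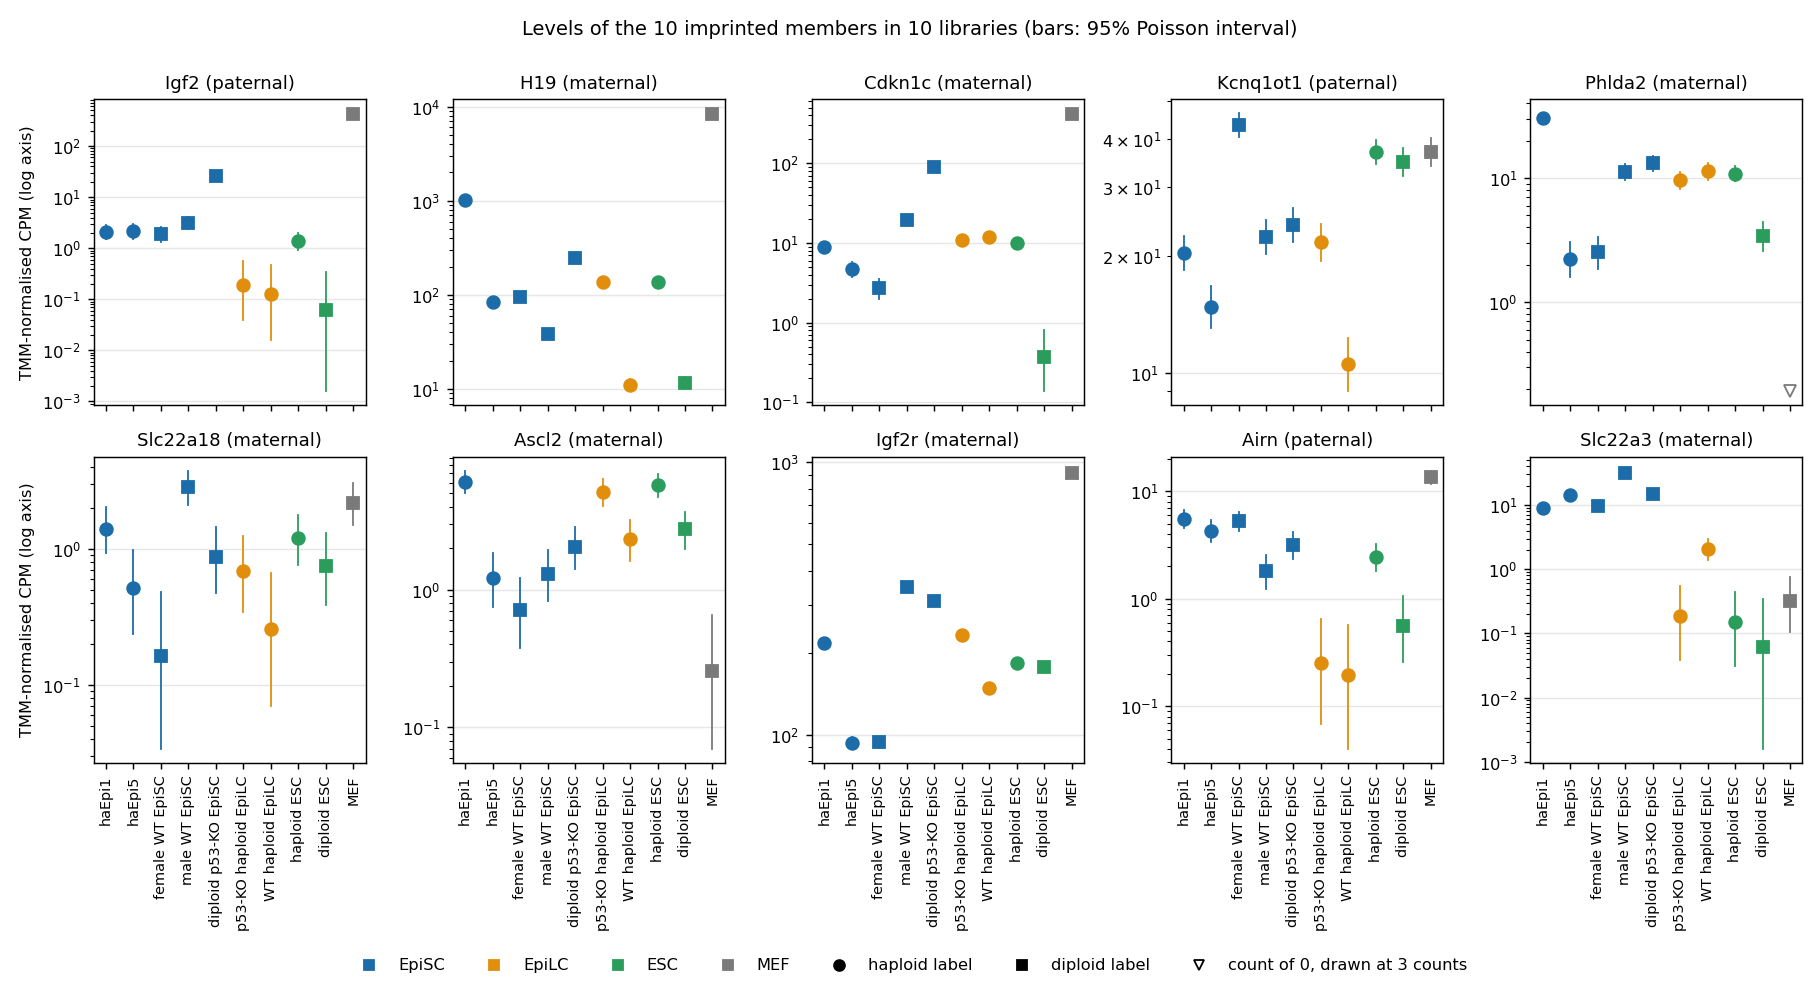
TMM-normalised CPM of each member (log axis) in the 10 libraries, with circles for the haploid and squares for the diploid label, colours for cell type and bars for 95% Poisson intervals; an open triangle stands for a count of 0, drawn at 3 counts. Slc22a3 lies between 8.84 and 31.1 CPM in the 5 EpiSC libraries and at or below 2.06 CPM elsewhere, and Igf2, H19, Cdkn1c, Igf2r and Airn are highest in MEF.

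Slc22a3, which encodes an organic cation transporter, was the member that set EpiSC apart. Its level was 8.84 CPM in haEpi1, 14.1 in haEpi5, 9.68 in the female WT, 31.1 in the male WT and 15.0 in the p53-KO diploid EpiSC library. It was 0.189 CPM in the p53-KO and 2.06 in the WT EpiLC library, 0.150 in the haploid and 0.0621 in the diploid ESC library, and 0.319 in MEF. Every EpiSC library exceeded every library of the other 3 cell types. Against ESC the difference was 7.07 ± 1.17 (log2 fold change ± SE; edgeR quasi-likelihood test, Benjamini-Hochberg adjusted p = 0.00402). Pooled over libraries the level was 140-fold that in ESC, with an exact 95% interval of 54.7 to 516 that covers counting error in 1390 and 4 counts. Against EpiLC it was 3.77 ± 0.92 (edgeR, adjusted p = 0.0325), or 13.9-fold pooled with an interval of 9.98 to 20.1. The call against ESC held when each library was left out in turn and had an adjusted p of 0.0705 (log2 7.47) among libraries labelled wild type only. That against EpiLC was lost without haEpi5 (adjusted p = 0.0592), without the p53-KO diploid EpiSC (0.0564) without the p53-KO EpiLC library (0.108) and among libraries labelled wild type (0.400), and the estimate was 6.33 without the WT EpiLC library. MEF held 5 counts of Slc22a3. Over the 9 other libraries Pearson's r between the logs of Slc22a3 and of the fibroblast sum was 0.64. The part of fibroblast RNA in the level of Slc22a3 was not tested.

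Airn, the antisense RNA of the same cluster, was near 0 in EpiLC in its counted exons. These cover 3597 bases of a span of 118.8 kb, and RNA from the rest was not measured. The level of Airn was 5.58 CPM in haEpi1, 4.26 in haEpi5, 5.25 in the female WT, 1.81 in the male WT and 3.16 in the p53-KO diploid EpiSC library. It was 0.252 CPM in the p53-KO and 0.194 in the WT EpiLC library, 2.45 in the haploid ESC, 0.559 in the diploid ESC and 13.5 in the MEF library. Both EpiLC libraries lay below all others, EpiSC and the haploid ESC overlapped, and MEF was highest. Airn was higher in EpiSC than in EpiLC by 4.11 ± 0.82 (edgeR, adjusted p = 0.0157), or 18.3-fold pooled with a counting interval of 8.77 to 45.8 (364 and 7 counts). This call was lost without the p53-KO EpiLC (adjusted p = 0.0932) or the WT EpiLC library (0.0993), and among libraries labelled wild type (0.416). Fibroblast markers moved with it: 1 of 18 rose from EpiLC to EpiSC, all 18 had a positive difference, and their median log2 difference was 3.53. As a percent of MEF, Airn was at 13.5% to 41.4% in EpiSC and the fibroblast sum at 1.21% to 3.16%, and the part of these markers in the result was not tested.

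Igf2r, the receptor that clears IGF2 and sorts lysosomal enzymes, lay in between on the chromosome but did not share these differences. Its level in EpiSC was 216 CPM in haEpi1, 93.1 in haEpi5, 93.7 in the female WT, 347 in the male WT and 311 in the diploid p53-KO library. In EpiLC it was 233 and 148 CPM (p53-KO and WT), in ESC 183 and 177 (haploid and diploid), and in MEF 914. EpiSC spanned the levels of EpiLC and ESC, and MEF was above all. The log2 differences were 0.21 ± 0.51 for EpiSC against ESC and 0.14 ± 0.51 for EpiSC against EpiLC (edgeR, adjusted p = 0.818 and 0.889). The ratio of Igf2r to Airn per length (FPKM) was 357 and 296 in the EpiLC libraries, 122 in diploid and 28.9 in haploid ESC. In EpiSC it ran from 6.90 to 74.2, and in MEF it was 26.2, so the EpiLC libraries had the highest ratio, which rests on 4 and 3 Airn counts. The ratio uses only the counted exons of Airn.

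Igf2, the fetal growth factor, was low in all pluripotent libraries except 1. Its level was 2.11 CPM in haEpi1, 2.19 in haEpi5, 1.91 in the female WT, 3.11 in the male WT and 25.7 in the p53-KO diploid EpiSC library. It was 0.189 CPM in the p53-KO and 0.129 in the WT EpiLC library, 1.40 in the haploid ESC, 0.0621 in the diploid ESC and 428 in the MEF library. All 5 EpiSC libraries were above both EpiLC and both ESC libraries, and the p53-KO diploid EpiSC library stood apart from the 4 other EpiSC libraries. The differences did not pass the test: 3.19 ± 1.38 against ESC (edgeR, adjusted p = 0.145) and 5.37 ± 1.74 against EpiLC (0.0808). Without the filter on low counts both passed (adjusted p = 0.0104 and 0.00099). Against ESC the estimate was 1.61 without the p53-KO diploid EpiSC library and 6.60 without the haploid ESC library. Against EpiLC it was 3.79, with an adjusted p of 0.0415 in edgeR, when the p53-KO diploid EpiSC library was left out.

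H19, the non-coding RNA downstream of Igf2, varied widely within each pluripotent cell type. Its level was 1012 CPM in haEpi1 against 84.3 in haEpi5, 94.5 in the female WT, 38.8 in the male WT and 246 in the p53-KO diploid EpiSC library. In EpiLC it was 137 CPM in the p53-KO and 11.0 in the WT library, in ESC 136 in the haploid and 11.6 in the diploid library, and in MEF 8423. The cell types overlapped, and within EpiSC the highest library was 26.1-fold the lowest. The differences between EpiSC and ESC (2.01 ± 1.48) and between EpiSC and EpiLC (1.98 ± 1.48) did not pass the test (edgeR, adjusted p = 0.392 and 0.413). In haEpi1, H19 was at 12.0% of its MEF level, with the fibroblast sum at 1.80%, and it was the 60th most abundant gene per length. Igf2 in that library was at 0.493% of its MEF level, and H19 was 1117-fold Igf2 per length there. This ratio was 22.2 to 115 in the 4 other EpiSC libraries, 226 and 433 in haploid and diploid ESC, 45.8 in MEF, and highest in EpiLC with the p53 knockout at 1693, against 199 in WT EpiLC, where Igf2 had 3 and 2 counts.

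Cdkn1c, which encodes the cell cycle inhibitor p57, was, like Igf2, highest among EpiSC in the p53-KO diploid library. Its level was 8.79 CPM in haEpi1, 4.67 in haEpi5, 2.68 in the female WT, 19.6 in the male WT and 90.1 in the p53-KO diploid EpiSC library. It was 10.8 CPM in the p53-KO and 11.8 in the WT EpiLC library, 10.1 in the haploid ESC, 0.373 in the diploid ESC and 414 in the MEF library. The cell types overlapped except that both EpiLC libraries were above both ESC libraries and MEF was above all. In the p53-KO diploid EpiSC library Cdkn1c was at 21.8% and Igf2 at 6.02% of their MEF levels. The fibroblast sum there was at 1.85%, among the 5 EpiSC libraries second to haEpi5 at 3.16%. The median of the 18 markers, 13.6 CPM, was the lowest of the 5. The part of fibroblast RNA in these levels was not tested.

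Kcnq1ot1, the antisense RNA of the Kcnq1 cluster, had the narrowest range of the members over all 10 libraries. Its level in EpiSC was 20.3 CPM in haEpi1, 14.8 in haEpi5, 43.3 in the female WT, 22.3 in the male WT and 24.1 in the diploid p53-KO library. In EpiLC it was 21.7 and 10.5 CPM (p53-KO and WT), in ESC 37.0 and 34.9 (haploid and diploid), and in MEF 37.0. Both EpiLC libraries lay below both ESC and MEF, and EpiSC ran from 14.8 to 43.3 CPM, above the WT EpiLC library. The difference between EpiLC and ESC, -1.17 ± 0.50, did not pass the test (edgeR, adjusted p = 0.33). Both haploid EpiSC lines were below the 3 diploid EpiSC libraries, and the difference between the haploid p53-KO and diploid WT EpiSC, -0.89 ± 0.41, did not pass either (adjusted p = 0.976). Kcnq1 itself, the potassium channel gene that Kcnq1ot1 runs through, had at most 11 counts in any library.

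Phlda2 and Ascl2, which act in the placenta as a growth suppressor and a trophoblast transcription factor, were present in the pluripotent libraries and low in MEF. Phlda2 was at 30.7 CPM in haEpi1, 2.25 in haEpi5, 2.52 in the female WT, 11.2 in the male WT and 13.2 in the p53-KO diploid EpiSC library. It was at 9.57 and 11.4 CPM in the p53-KO and WT EpiLC libraries, 10.9 and 3.42 in the haploid and diploid ESC libraries, and 0 in MEF. Ascl2 was at 6.08 CPM in haEpi1, between 0.711 and 2.05 in the 4 other EpiSC libraries, at 5.10 and 2.32 in EpiLC, 5.74 and 2.73 in ESC, and 0.255 in MEF. Both genes were highest in haEpi1, and neither separated EpiSC, EpiLC and ESC. The 12 trophoblast markers summed to 655 to 1839 CPM in EpiSC, 691 in the haploid and 136 in the diploid ESC library, 308 and 69.3 in EpiLC and 29.3 in MEF. Their highest sum was in haEpi5, where Phlda2 was lowest among the pluripotent libraries. Their median gave another order: among EpiSC it was highest in haEpi1, at 7.58 CPM against 4.06 in haEpi5, and it was 11.9 in haploid ESC. Slc22a18, a transporter of the same family as Slc22a3, stayed between 0.164 and 2.83 CPM in all libraries, with 3 counts in the female WT EpiSC library.

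Across cell states, few members passed the test. For EpiSC against ESC, 1 of 10 members rose and none fell, where 16.9% of the 21104 genes tested changed, 6.86% up and 10.1% down. At an unadjusted edgeR p under 0.05 it was 2 members, Igf2 and Slc22a3, against 31.2% of genes. The members' median log2 difference was 1.07, against -0.02 over all genes tested. The libraries of EpiSC and ESC did not overlap for 2 members, Igf2 and Slc22a3, and for 37% of the 18996 genes with at least 1 CPM in 1 or more libraries. For EpiLC against ESC no member passed (edgeR, 0 of 10), where 0.426% of genes changed, 0.317% up and 0.109% down. DESeq2 also called 0 of the 7 members it gave an adjusted p for, and 3 members had an unadjusted edgeR p under 0.05, against 14.4% of genes: Kcnq1ot1, Airn (-2.71 ± 0.85, adjusted p = 0.208) and Slc22a3 (3.30 ± 1.14, adjusted p = 0.249). The estimate for Slc22a3 was 0.74 without the WT EpiLC library, that for Airn was -1.34 without the haploid ESC library, and that for Kcnq1ot1 was -0.75 without the WT and -1.79 without the p53-KO EpiLC library. The EpiLC and ESC libraries did not overlap for 5 members, against 41.6% of genes. For EpiSC against EpiLC, 2 of 10 members rose, where 9.65% of genes changed, 3.77% up and 5.88% down. At an unadjusted p it was 3, against 27.7% of genes, and the libraries did not overlap for 3 members, against 35% of genes.

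**Figure D3:**
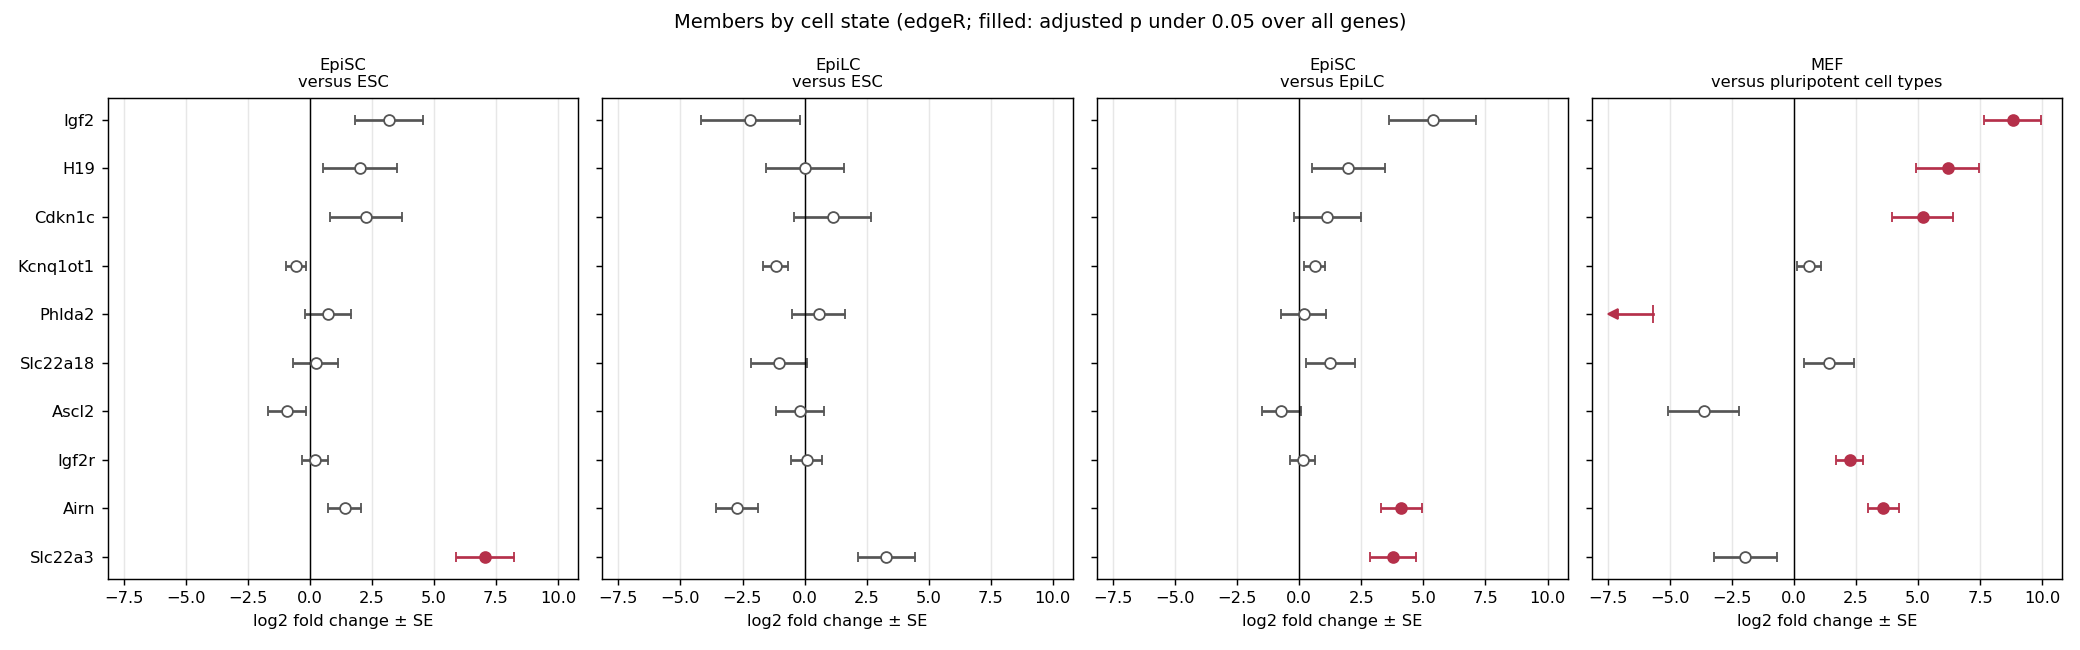
Log2 fold change ± SE of each member in 4 comparisons of cell states, from edgeR; filled symbols had an adjusted p under 0.05 over all genes tested, and the arrow for Phlda2 in MEF starts at the bound set by a count of 0, a decrease of at least 5.69. Slc22a3 passed in both EpiSC comparisons, Airn in that with EpiLC, and 6 members passed in MEF.

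MEF, the somatic cells of the series, differed from the pluripotent cells in 6 of 10 members, where 26.1% of genes changed. At an unadjusted edgeR p under 0.05 it was 7 members, against 38.5% of genes. Those that rose, against 16.1% of genes, were 5: Igf2 by 8.81 ± 1.14 (edgeR, adjusted p = 0.000767), H19 by 6.19 ± 1.28 (0.00686), Cdkn1c by 5.19 ± 1.22 (0.0123), Airn by 3.60 ± 0.61 (0.0027) and Igf2r by 2.25 ± 0.54 (0.0134). The 1 that fell, against 10% of genes, was Phlda2, with 0 counts in MEF (edgeR, adjusted p = 0.0248). This call was lost with limma on log2(FPKM + 1), at an adjusted p of 0.0654. Taking a count of 0 as at most 3 counts in that library, 0.191 CPM, Phlda2 was at least 51.6-fold lower than the mean of the EpiSC, EpiLC and ESC means, and at least 11.7-fold lower than its lowest pluripotent library. Ascl2 was lower by 3.64 on the log2 scale without passing (edgeR, adjusted p = 0.0896), but passed with DESeq2 (0.0162), without the filter on low counts (0.0491), with limma on log2(FPKM + 0.1) (0.0491) and without haEpi1 (0.0481). Kcnq1ot1, Slc22a18 and Slc22a3 did not pass. The members that rose belong to all 3 clusters and to both parental classes of background knowledge, 3 maternal (H19, Cdkn1c, Igf2r) and 2 paternal (Igf2, Airn). MEF and the 9 other libraries did not overlap for 7 members, against 49.9% of genes. MEF was a single library, assumed to vary like the others, and the median log2 difference over all genes in this comparison was -0.20.

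**Figure D4:**
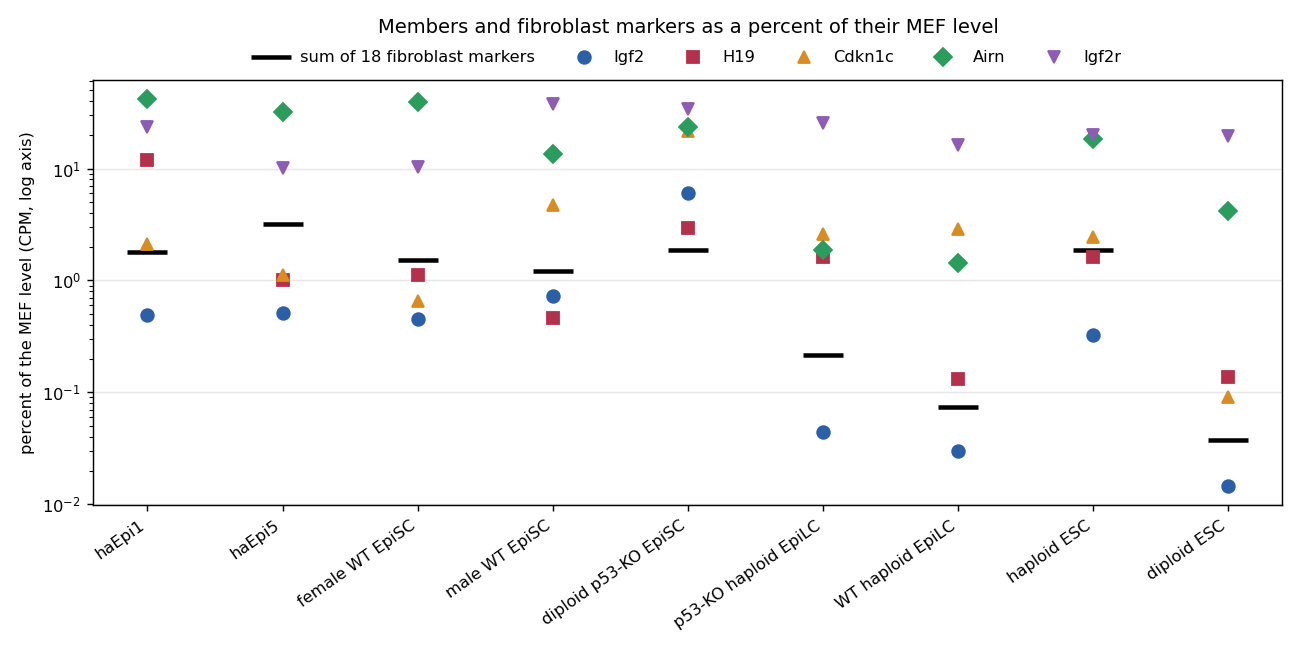
Level of 5 members and the summed level of 18 fibroblast markers as a percent of their MEF level (log axis) in the 9 pluripotent libraries. Airn and Igf2r lie above the fibroblast sum in each library, Igf2 lies below it except in the p53-KO diploid EpiSC library, and H19 in haEpi1 is at 12.0% of MEF.

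Because these 5 genes are high in fibroblasts, their levels in the pluripotent libraries were set beside the fibroblast markers, as the plot of percent of MEF level shows. Over the 9 pluripotent libraries, Pearson's r between the logs of a member and of the fibroblast sum was 0.88 for Airn, 0.73 for Igf2, 0.71 for H19, 0.43 for Cdkn1c and -0.04 for Igf2r, given as a description, since all values of a library share its depth and normalization. Igf2 was below the fibroblast sum, as a percent of MEF, in 8 of the 9 libraries, and the part of fibroblast RNA in its level was not tested. H19 was above it in 5 of the 9 libraries, farthest in haEpi1 among EpiSC.

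By ploidy label no member passed the test. In the fit of the 9 pluripotent libraries with cell type, p53 label and ploidy label, edgeR called 0 of 10 members and 0% of the 18659 genes tested. No member had an unadjusted p under 0.05, against 4.72% of genes, and DESeq2 called 0 members and 39 genes. Of the 7 maternally expressed members, 5 had a higher estimate under the haploid label, with a median log2 difference of 0.29: H19 1.72 ± 1.11, Phlda2 0.99 ± 0.94, Ascl2 0.91 ± 0.68, Slc22a3 0.29 ± 0.72 and Slc22a18 0.01 ± 1.38, against Cdkn1c -1.47 ± 1.86 and Igf2r -0.64 ± 0.55. Of the 3 paternally expressed members, Airn was at 1.10 ± 0.66, Igf2 at -1.61 ± 1.497 and Kcnq1ot1 at -0.51 ± 0.46 (median -0.51), where the median of all genes was 0.02. The 3 haploid and 4 diploid libraries of EpiSC and ESC overlapped for all 10 members, where 5.17% of genes did not overlap. Under single alternatives the estimates of Igf2 (2.16 without the p53-KO diploid EpiSC library), Cdkn1c, Phlda2, Slc22a18 and Slc22a3 changed sign. The SEs ran from 0.46 to 1.86 on the log2 scale, so a p that misses the threshold does not show that levels were alike. Fibroblast markers moved with the haploid label as well: all 18 had a positive estimate, with a median of 2.91, 7 of them at an unadjusted p under 0.05 and 0 at an adjusted p under 0.05. Their part in the estimates of H19 and Airn was not tested.

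Within the 5 EpiSC libraries the levels also overlapped for most members. Between the haploid p53-KO and diploid WT EpiSC no member passed (edgeR, 0 of 10, 0% of 18153 genes; DESeq2 0), and 1 had an unadjusted p under 0.05, against 3.53% of genes: H19, at 3.05 ± 1.07 (adjusted p = 0.976), and at 0.34 without haEpi1. Kcnq1ot1 was the 1 member whose libraries did not overlap, against 31.3% of genes, and it was also the 1 member that did not overlap between the haploid lines and all 3 diploid EpiSC libraries, against 20.3% of genes. Between the haploid and p53-KO diploid EpiSC, which share the p53 label, edgeR again called 0 members and 0% of genes, and 2 had an unadjusted p under 0.05, against 5.55% of genes. Igf2 was lower in the haploid lines by 3.56 on the log2 scale (SE 0.56, unadjusted p = 0.000488, adjusted p = 0.381 in edgeR) and Cdkn1c by 3.72 (SE 0.98, adjusted p = 0.679). DESeq2 called both, with adjusted p of 6.5e-06 and 0.0019, among 260 genes it called in all. The same library gave the differences of the p53-KO diploid from the diploid WT EpiSC. Igf2 was at 3.34 ± 0.56 and Cdkn1c at 3.01 ± 0.96 (edgeR, adjusted p = 0.682 and 0.9999). DESeq2 called 1 member, Igf2 (adjusted p = 9.23e-05), among 132 genes it called in all. At an unadjusted edgeR p under 0.05 were 2 members, against 3.86% of genes. Between the haploid and the diploid p53-KO lines, 16 of 18 fibroblast markers had a positive estimate, the other direction from Igf2 and Cdkn1c. Their median was 2.41, and 11 had an unadjusted edgeR p under 0.05. The fibroblast sum gave another order. It was 1398 CPM in the p53-KO diploid library, 1356 in haEpi1, 2382 in haEpi5, 1140 in the female WT and 913 in the male WT. The part of fibroblast RNA in these differences was not tested. Both comparisons of Igf2 and Cdkn1c rest on the 1 p53-KO diploid EpiSC library, so ploidy, p53 label and that library cannot be told apart. Nor can the Y-linked level: Ddx3y was at 117 CPM there and 94.2 in the male WT EpiSC. It was at 8.49 in haEpi1, 5.01 in haEpi5 and 5.74 in the female WT.

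**Figure D5:**
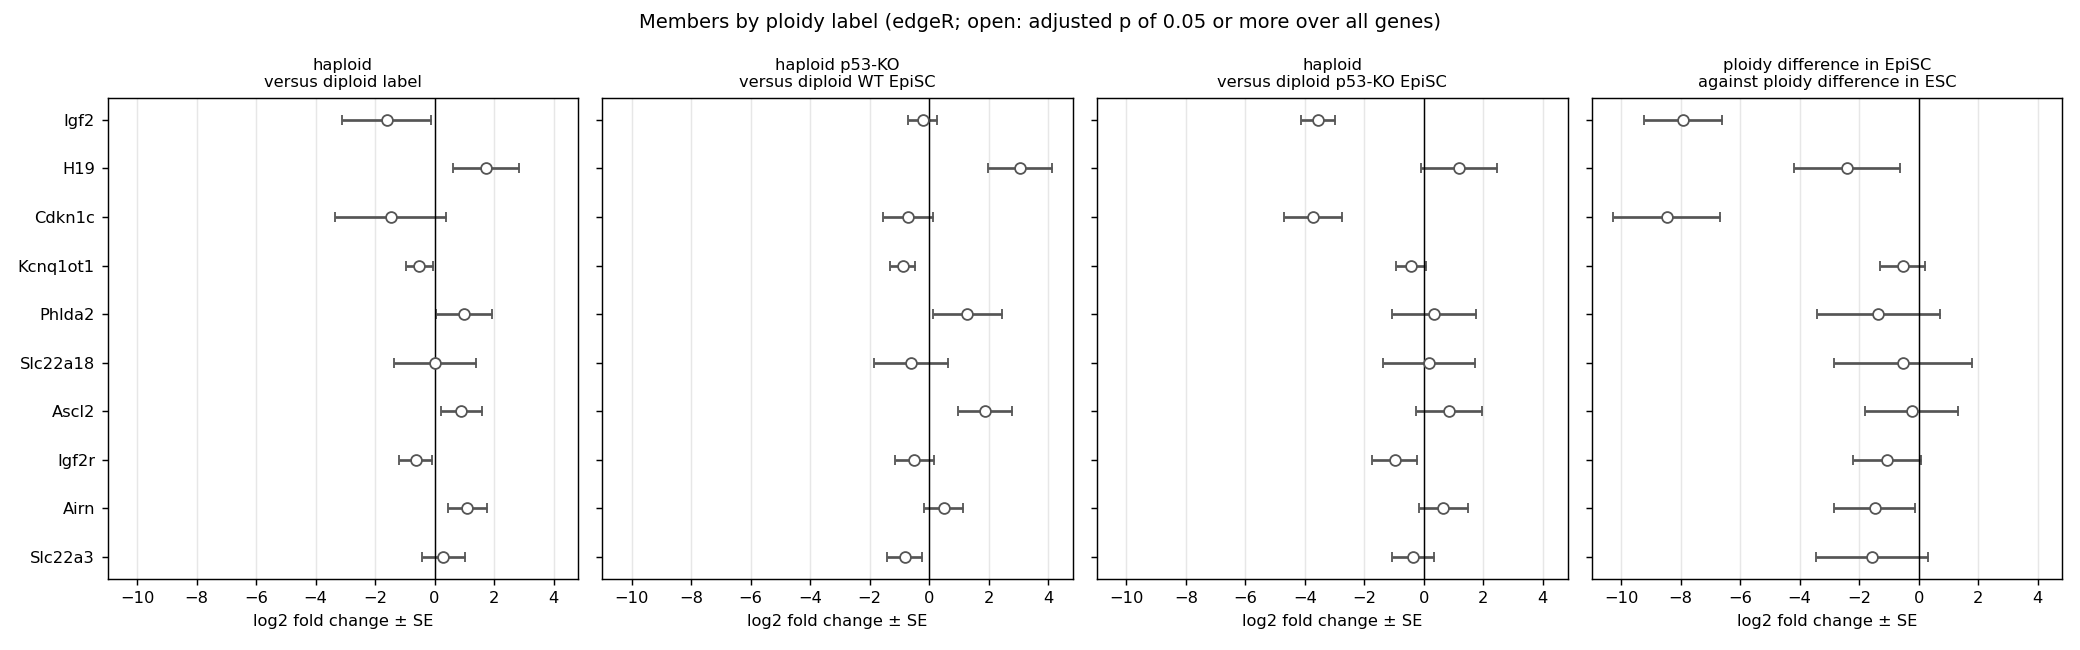
Log2 fold change ± SE of each member by ploidy label, from edgeR: over the 9 pluripotent libraries, between groups of EpiSC, and as the difference between the EpiSC and ESC ploidy differences; open symbols had an adjusted p of 0.05 or more over all genes tested. No member passed in any of the 4 comparisons, and Igf2 and Cdkn1c lie farthest from 0 in the last.

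The single pair of ESC libraries went the other way for these genes. The haploid ESC library had 28 counts of Igf2 against 1 in the diploid, a ratio of 22.5 with an exact 95% counting interval of 3.72 to 920. Cdkn1c was 27.1-fold higher in the haploid library (12.2 to 74.6), H19 11.7-fold (10.1 to 13.7), Airn 4.38-fold (2.13 to 10.1) and Phlda2 3.19-fold (2.36 to 4.36). Kcnq1ot1 and Igf2r differed by 0.08 and 0.05 on the log2 scale. These intervals cover counting error only, and with 1 library a side there was no test. The fibroblast sum was 1416 CPM in the haploid and 28.0 CPM in the diploid ESC library. In the haploid library, at 1.88% of MEF, it exceeded the level of Igf2 (0.327%) and was close to those of H19 (1.61%) and Cdkn1c (2.44%). The part of fibroblast RNA in these ratios was not tested. A last comparison set the haploid p53-KO lines minus the p53-KO diploid EpiSC library against the haploid minus the diploid ESC library. Of its 4 sides 3 are single libraries, 1 of them the p53-KO diploid EpiSC library in which Igf2 and Cdkn1c stood apart. Its value was -7.92 ± 1.32 for Igf2 and -8.48 ± 1.80 for Cdkn1c. Neither passed in edgeR (adjusted p = 0.21 and 0.303), which called 0 of 10 members and 0% of genes. DESeq2 called both, among 245 genes it called in all. At an unadjusted edgeR p under 0.05 were 2 members, against 6.97% of genes. Fibroblast markers moved with these estimates: 16 of 18 were negative, with a median of -4.79, 10 of them at an unadjusted p under 0.05, and their part in the result was not tested. Against the diploid WT EpiSC instead, the haploid lines differed by -0.22 ± 0.48 for Igf2 and -0.71 ± 0.83 for Cdkn1c (edgeR, adjusted p = 0.987 and 0.976).

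By p53 label no member passed (edgeR, 0 of 10 and 0% of genes; DESeq2 0 members), and no member had an unadjusted p under 0.05, against 3.07% of genes. H19 had the largest estimate, 2.09 ± 1.00 (adjusted p = 0.9996). In the pair of haploid EpiLC libraries, H19 was 12.5-fold higher in the p53-KO than in the WT library, with a counting interval of 10.7 to 14.6, and Slc22a3 was 10.9-fold higher in the WT library (3.42 to 55.8, from 32 and 3 counts). That pair had no replicate and differed also in naive ESC markers, at 1341 and 859 CPM, and in post-implantation markers, at 1276 and 4464.5 CPM. Fibroblast markers summed to 162 and 55.5 CPM (p53-KO and WT).

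Neighbouring genes were taken from a list for each chromosome. Of 20 listed neighbours on chromosome 7, 18 were tested for EpiSC against ESC: 1 rose, the sterol reductase gene Dhcr7 (1.09 ± 0.24, edgeR adjusted p = 0.0139), and 1 fell, the tetraspanin gene Tspan32 (-4.72 ± 0.98, adjusted p = 0.0112). Over all genes tested, 6.86% rose and 10.1% fell in this comparison. Of 9 tested neighbours on chromosome 17, 4 changed: 1 rose, the acyltransferase gene Agpat4 (1.68 ± 0.38, adjusted p = 0.0153), and 3 fell: Pnldc1, which trims small RNAs of the germ line (-3.54 ± 0.41), Sod2 (-1.04 ± 0.30) and Wtap (-0.60 ± 0.18). Against EpiLC, the oxysterol-binding gene Osbpl5 (3.22 ± 0.87, adjusted p = 0.0467) and the leukocyte gene Lsp1 (3.84 ± 1.05, adjusted p = 0.0477) rose in EpiSC on chromosome 7, and Pnldc1 fell on chromosome 17 (-3.20 ± 0.41). Over all genes tested, 3.77% rose and 5.88% fell in EpiSC against EpiLC. In MEF, 4 of 18 neighbours on chromosome 7 rose, Lsp1, Osbpl5, Trpm5 and Cd81, and none fell. On chromosome 17, 1 of 9 fell in MEF, Pnldc1. Over all genes tested, 16.1% rose and 10% fell in MEF.

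The IGF pathway, into which Igf2 and Igf2r feed, was described by a list of ligands, receptors, substrates and binding proteins. Of 16 listed genes 14 were tested against ESC: 7 rose and none fell, where 6.86% of all genes rose, with a median log2 difference of 1.84. Fibroblast markers moved with them: all 18 had a positive difference, with a median of 1.43 against ESC and 3.53 against EpiLC, and their part in the result was not tested. The largest were the IGF-binding proteins Igfbp5 (5.56 ± 1.16, edgeR adjusted p = 0.0113), Igfbp3 (4.46 ± 0.84, 0.0073) and Igfbp4 (2.79 ± 0.71, 0.0249), and the receptor substrate Irs1 (3.55 ± 0.82, 0.0174). Against EpiLC, 3 of 14 rose and none fell, where 3.77% of all genes rose: Igfbp3 (3.03 ± 0.77), Igfbp4 (2.75 ± 0.70) and the receptor gene Igf1r (1.65 ± 0.37). In MEF 8 of 14 rose and 2 fell, where 16.1% of all genes rose and 10% fell. Igf1 led at 9.91 ± 0.79, and Igfbp3, Igfbp4 and Igfbp5 were among those that rose there. Igf2bp1, which binds Igf2 mRNA, was between 354 and 710 CPM in the pluripotent libraries and 88.4 CPM in MEF. Of the 14 genes of imprint maintenance, none rose and 4 fell from ESC to EpiSC: Dnmt3l, a cofactor of DNA methylation (-8.67 ± 0.61), Dppa3, which protects methylation in the early embryo (-6.91 ± 0.91), Zfp57, which guards methylated imprints (-2.44 ± 0.35), and the Polycomb gene Eed (-1.04 ± 0.25). From ESC to EpiSC 10.1% of all genes fell. Against EpiLC, Dnmt3l (-9.41 ± 0.62) and Dppa3 (-6.86 ± 0.91) fell and none rose, where 5.88% of all genes fell. In MEF none rose and 5 fell, among them Dppa3, Dnmt3b, Dnmt3l and Uhrf1, where 10% of all genes fell. For EpiLC against ESC edgeR called 0 genes of these lists or of the neighbours. At an unadjusted p under 0.05 were 2 IGF, 4 imprint maintenance, 1 chromosome 7 and 0 chromosome 17 genes, against 14.4% of all genes. By ploidy label edgeR also called 0, with 2, 1, 2 and 1 genes at an unadjusted p under 0.05, against 4.72% of all genes. These lists were chosen with earlier results of these data known.

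Members of a cluster did not share 1 pattern over the libraries. Without MEF, over 9 libraries, Pearson's r between logs of CPM was 0.54 for Igf2 and H19, 0.62 for Cdkn1c and Phlda2, 0.66 for Phlda2 and Ascl2, and -0.33 for Cdkn1c and the silencing RNA of its cluster, Kcnq1ot1. Across clusters it was 0.77 for Slc22a18 and Igf2r, 0.71 for Phlda2 and Igf2r and 0.70 for Igf2 and Cdkn1c. Among 11133 protein-coding genes and all 10 libraries, the genes most like Slc22a3 were Gria4 (r = 0.98), Macc1 (0.97) and Reep2 (0.97), and those most like Airn were Hspa13 (0.98), Ltbp3 (0.98) and Hspa12b (0.97). The nearest to Igf2 was Ssr3 (0.97), to H19 Ppp2r3a (0.97), to Phlda2 Itga6 (0.96), to Cdkn1c Dgcr2 (0.95), to Igf2r Atf6 (0.94), to Kcnq1ot1 Zfp169 (0.94) and to Ascl2 Hprt (0.94). These values describe 10 libraries that share cell types, depth and normalization, and were picked as the highest of many.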

How the data were processed

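RNA sequencing of 10 libraries was analysed from the deposited tables of counts and of FPKM. The authors deposited whole-number counts of each gene, obtained with HISAT2 2.0.5 and featureCounts 1.5.0-p3 on mm10, per the submitters' processing notes. Their FPKM, also deposited, were found to be the counts scaled by gene length and a library constant (relative deviation at most 1.66e-08) and were used only to compare genes and as an alternative. Gene positions in the tables equal those of GENCODE vM21 for all 10 members. No 2 libraries agreed within sampling noise.

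The test of counts was that of edgeR 4.0.16, under R 4.3.3 (filterByExpr, TMM, quasi-likelihood F test, Benjamini-Hochberg over all genes tested, threshold 0.05). Cell types were compared in 1 fit of 10 libraries with 1 mean each, ploidy and p53 labels in an additive fit of the 9 pluripotent libraries with cell type, and groups of EpiSC in a fit of 5 libraries. The interaction used the 9 libraries with 1 mean per group. Each SE is |log2 fold change| over the root of its F value. As alternatives, DESeq2 1.42.0, limma 3.58.1 on log2(FPKM + 1) and log2(FPKM + 0.1), RLE size factors, no filter, covariates, wild-type libraries only and leaving out each library were run. The fits of cell types and of labels were also run on simulated counts with 1 fixed spread for all genes and changed genes above 5 CPM. That run does not show how the fits perform on members with wider spread or fewer counts. Levels are TMM-normalised CPM with 95% Poisson intervals, ratios of pooled counts have exact (Clopper-Pearson) intervals, and pairs of single libraries use a prior count of 2. Correlations used log2(CPM + 0.5). Similar genes were sought for members with at least 5 CPM in 1 or more libraries. The search ran among protein-coding genes with a mean of at least 5 CPM and no predicted-gene or RIKEN symbol. Promoter and microRNA sequences are RefSeq, GRCm38.p6. The members and lists were chosen with earlier results of these data known. Named were all members, and from each list up to 4 genes past the threshold with the largest change, or the 2 with the smallest p.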

Additional observations from a re-analysis of the deposited data

Results flagged for a closer look

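Among the 5 EpiSC libraries, 5 members had 1 library whose gap to the next exceeded Dixon's 95% critical value of the whole range. Chance flags about 1 in 20 such groups only where values are normal and come from 1 population. These were CPM, not logs, from EpiSC of different p53 and ploidy labels. The share of all genes flagged by this rule was not computed, so the flags describe these libraries only. Igf2 at 25.7 CPM and Cdkn1c at 90.1 CPM stood apart in the diploid p53-KO library. H19 at 1012 CPM and Ascl2 at 6.08 CPM stood apart in haEpi1. Slc22a3 at 31.1 CPM stood apart in the male WT library.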

How the results depend on the processing

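Depth limits Slc22a18, with at most 50 counts in any library, and Igf2, Airn and Slc22a3, each with under 10 counts in 3 or more libraries. Most groups held 1 library, so the calls that rest on them have no replicate check. The number of all genes called changed with the setting too, so a member gained or lost is no result about that member. Over all genes, edgeR called 3573 of 21104 for EpiSC against ESC, and 4602 of 35923 without the filter on low counts. For EpiSC against EpiLC these were 2036 of 21104 and 3162 of 35923. In edgeR 1 member was called for EpiSC against ESC, 2 with no filter on low counts and 0 among libraries labelled wild type. For EpiSC against EpiLC it was 2, 3 without the filter (Igf2 added), 0 among libraries labelled wild type, and 0 to 2 when single libraries were left out. For the haploid p53-KO against diploid WT EpiSC it was 0, and 1 (H19) without the filter. For haploid against diploid p53-KO EpiSC it was 0, against 2 with DESeq2, 2 without the filter and 0 to 2 when single libraries were left out, 2 without either WT library. For p53-KO diploid against WT diploid EpiSC it was 0, against 1 with DESeq2, 3 without the filter and 0 to 2 in the leave-one-out fits, 2 without the male WT library. For the difference between the ploidy differences it was 0, against 2 with DESeq2, 3 without the filter, 1 with limma on log2(FPKM + 1) and 0 to 2 in the leave-one-out fits. Counts for MEF stayed between 4 and 7 over all alternatives.

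By ploidy label, estimates changed sign for Slc22a18 with DESeq2 (-0.0071) and for Slc22a3 with limma on log2(FPKM + 1) (-0.13). Leaving out single libraries, the ranges were -3.20 to 2.16 for Igf2, -3.07 to 2.26 for Cdkn1c, -0.40 to 1.59 for Phlda2, -0.47 to 0.45 for Slc22a18 and -0.12 to 2.07 for Slc22a3. The cause was not tested. Over 433 alternatives of 32 member fold changes, 381 kept their direction and side of the threshold, 9 lost a call, 30 gained one and 13 changed sign. DESeq2 gave no adjusted p for Igf2, H19 and Cdkn1c between cell types. Leaving out the only library of a group gave no value for contrasts of that group. No paired analysis was possible because most groups hold 1 library and the labels give no replicate numbers shared between the others.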
